A study of Mus musculus with 4 samples.

Results

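RNA levels of 36 genes of cholesterol and fatty acid synthesis were examined in mouse astrocytes in primary culture, labelled either wild type or deficient for OASIS. The genes were taken as a list of 18 sterol synthesis enzymes, 6 genes of the SREBP regulatory machinery, 9 lipogenic enzymes and 3 genes of cholesterol efflux. They were found by matching the gene identifiers of the deposited tables, without version, to GENCODE symbols for GRCm38. All 36 were among the 55487 identifiers, and all 36 were among the 15596 genes that averaged 1 CPM (counts relative to the library total) or more and entered the comparisons.

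Each pairing of genotype with treatment was measured in 1 library, 4 in all. Creb3l1 encodes OASIS, which is anchored in the endoplasmic reticulum membrane and acts as a transcription factor once it is cut free. The untreated libraries came from wild-type cultures and from OASIS-deficient cultures, and the doxorubicin libraries from cultures of either genotype given 1 µg/ml of this DNA-damaging topoisomerase II poison for 1 h. Treatment began 5 days after confluence and was followed by 24 h in fresh medium, and all cultures were kept in DMEM with 10% fetal bovine serum, which itself carries cholesterol. The labels give no strain, age, allele or number of animals per culture. The comparisons ask how these genes differ with loss of OASIS and with doxorubicin.

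Astrocytes make cholesterol for themselves and for neurons, and they export it on particles that carry apolipoprotein E. Sterol synthesis runs from acetyl-CoA through mevalonate and farnesyl diphosphate to squalene, and then through lanosterol to cholesterol. When membrane sterol is low, SCAP escorts the SREBP transcription factors from the endoplasmic reticulum to the Golgi, where they are cleaved by the same proteases that cleave OASIS, and INSIG proteins hold SCAP back when sterol is plentiful. When oxysterols are plentiful, LXR receptors raise the efflux transporters and Srebf1.

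The promoters of 4 genes are printed because SREBP binds sterol regulatory elements together with the factor NF-Y, and these genes span the directions described further on. Hmgcs1, Mvd and Pmvk were higher in the deficient libraries, and Abca1 was lower. The sequences are from RefSeq (GRCm38.p6) and run 5′ to 3′ through the 250 bases before the annotated start. Capitals mark the sterol regulatory element TCACNCCAC and the NF-Y box CCAAT, each in either direction. Pmvk has another annotated start 5030 bases downstream, and its window there holds neither motif. The start nearest the GENCODE gene start is the one shown. Which start gave the Pmvk RNA of these libraries was not tested, so the stretch shown need not be the promoter in use.
Hmgcs1 promoter (chr13:119690101-119690350, plus strand): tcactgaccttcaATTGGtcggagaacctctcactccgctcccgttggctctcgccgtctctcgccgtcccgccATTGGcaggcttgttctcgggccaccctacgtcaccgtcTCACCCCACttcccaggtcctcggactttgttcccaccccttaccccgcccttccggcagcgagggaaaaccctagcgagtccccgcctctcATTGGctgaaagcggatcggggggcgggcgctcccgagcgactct
Mvd promoter (chr8:122443423-122443672, minus strand): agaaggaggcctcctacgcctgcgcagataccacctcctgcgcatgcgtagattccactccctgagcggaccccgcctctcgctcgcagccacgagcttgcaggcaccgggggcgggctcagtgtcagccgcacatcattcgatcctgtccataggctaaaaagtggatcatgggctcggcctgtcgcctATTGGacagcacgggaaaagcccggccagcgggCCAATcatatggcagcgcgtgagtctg
Pmvk promoter (chr3:89454291-89454540, plus strand): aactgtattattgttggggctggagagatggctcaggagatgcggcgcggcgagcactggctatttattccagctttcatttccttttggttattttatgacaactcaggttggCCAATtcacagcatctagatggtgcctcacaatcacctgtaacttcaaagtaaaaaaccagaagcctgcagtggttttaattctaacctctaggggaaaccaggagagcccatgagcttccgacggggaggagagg
Abca1 promoter (chr4:53159896-53160145, minus strand): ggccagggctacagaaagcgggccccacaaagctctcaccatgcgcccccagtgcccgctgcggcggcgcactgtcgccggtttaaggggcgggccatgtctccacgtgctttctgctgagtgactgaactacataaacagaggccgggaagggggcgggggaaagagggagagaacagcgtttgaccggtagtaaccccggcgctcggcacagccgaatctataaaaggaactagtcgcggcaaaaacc

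RefSeq windows of 300 bases (250 before to 50 after the start) were at hand for 28 of the 36 genes. None was at hand for Fdps, Fdft1, Sqle, Stard4, Scd1, Scd2, Fads1 or Abcg1, so their motifs are not known here. The only window of Acaca lay 65766 bases from its GENCODE gene start. A gene with several windows was counted if any of them held the motif. TCACNCCAC was found on either strand in 1 of the 28, Hmgcs1, where TCACCCCAC starts 137 bases before the start. Of 11128 tested genes with a window, 1.41% held that motif. CCAAT was present in 21 of 28 genes (75%) and in 42.9% of the tested genes. Among genes called by genotype 9 of 13 held it, and among uncalled genes 12 of 15. Hmgcs1 had 4 of them in its whole window. GGGCGG, the Sp1 box, was present in 22 of 28 genes (78.6%) and in 68.2% of the tested genes. None of these motifs contains another, and a match is a description of these letters only.

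Total counts ran from 17481188 to 22559613 per library, and 3 counts, taken as the most that an observed 0 could hide, equalled 0.131 to 0.174 CPM. Creb3l1 had 966 and 636 counts in the libraries labelled wild type and 260 and 235 in those labelled deficient, so its RNA was lower in the deficient libraries and not absent. Xist had 1 and 0 counts in the untreated libraries and 2547 and 2742 in the doxorubicin libraries, while the Y-linked Ddx3y had 1567 and 742 untreated and 0 with doxorubicin. Kdm5d, Uty and Eif2s3y split the same way as Ddx3y. Treatment and the sex of the culture cannot be told apart in these libraries. With 1 library per group, a ratio of single libraries has no replicate check, and its interval covers counting error only. P-values come from additive fits of genotype and treatment to all 4 libraries, which leave 1 residual degree of freedom, so they reflect only how these libraries vary.

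Marker genes of several cell types and of the cell cycle also moved with the genotype label. Over all tested genes, 12.6% were called higher and 10.6% lower in the additive genotype fit. Of 10 astrocyte markers, 8 were called higher by genotype, and they summed to 3925 and 3801 CPM in the wild-type libraries and to 11134 and 9804 CPM in the deficient libraries. Without the intermediate filament gene Gfap, the most abundant of them, the sums were 2784 and 2681 against 4546 and 4637 CPM. Of 12 markers of the oligodendrocyte lineage 11 were called higher, and they summed to 482 and 348 CPM against 1095 and 1092 CPM, and the myelin gene Mog had 0 and 0 counts against 58 and 70. All 12 cell cycle genes listed were called higher in the deficient libraries, with sums of 101 and 141 against 1204 and 1707 CPM. All 12 p53 targets listed were called lower, with sums of 4425 and 4862 against 701 and 755 CPM. Neuronal markers (5 of 7 tested called higher) summed to 223 and 200 against 407 and 437 CPM, and microglial markers (1 of 10 higher, 2 lower, near the shares over all genes) to 889 and 653 against 791 and 569 CPM. Of 6 ependymal markers, Rarres2 was called higher and Ccdc153 lower, and the list summed to 110 and 152 against 115 and 115 CPM. No fibroblast or endothelial marker was called, and the endothelial ones summed to at most 17.9 CPM. Fewer cells of a type and less RNA per cell cannot be told apart in bulk samples, and the part of these marker differences in the lipid gene results was not tested.

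On the deposited TPM scale, which corrects for transcript length, the genes spanned more than 3 orders of magnitude in level. Apoe, the lipoprotein that astrocytes secrete, had the highest level, with a mean of 13407 TPM and a range of 12019 to 14124 TPM over the libraries. The fatty acid desaturases Fads2 (mean 385 TPM) and Scd2 (mean 318 TPM) came next, and their ranges overlapped. Msmo1, Fdps, Hmgcs1 and Sqle followed at means of 228, 186, 142 and 136 TPM. The lowest Scd2 value (264 TPM) was above the highest of Msmo1 (254 TPM), whereas the ranges of Msmo1, Fdps, Hmgcs1 and Sqle overlapped from each gene to the next. At the low end stood the carboxylase Acaca at 5.40 TPM, the sterol carrier Stard4 at 4.97 TPM and the transporter Abcg1 at 3.08 TPM, also with overlapping ranges. The 36 genes took 1.47, 1.47, 1.55 and 1.44% of all counts in wild type untreated, wild type with doxorubicin, deficient untreated and deficient with doxorubicin, and every later set of 4 values keeps that order. Apoe alone took 0.849, 0.886, 0.896 and 0.785%.

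**Figure D1:**
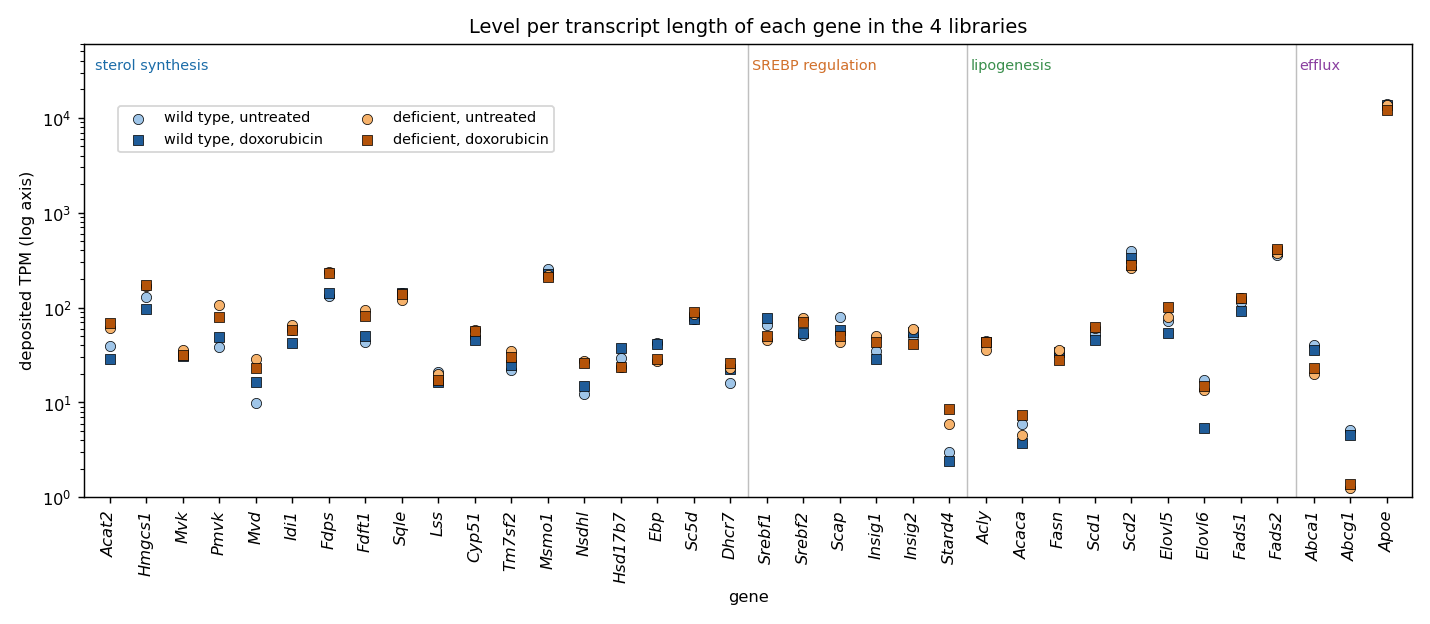
Deposited TPM (log axis) of each of the 36 genes in the 4 libraries, in order of role and pathway, with 1 point per library. Apoe stands at 12019 to 14124 TPM and Abcg1 between 1.26 and 5.12 TPM, and the points of most genes lie close together on this scale.

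By genotype, 9 of the 18 sterol synthesis enzymes were called higher in the deficient libraries and the cholesterol exporter Abca1 was called lower. The additive fit called 16 of the 36 genes higher (12.6% of all tested genes were) and 3 lower (10.6% of all tested genes), by the quasi-likelihood test of edgeR with a Benjamini-Hochberg adjusted p, over all 15596 genes, no higher than 0.05. The other 17 were not called. Over the 36 genes the median genotype effect was 0.38 on the log2 scale, against -0.01 over all genes tested. Both deficient libraries lay above both wild-type libraries for 22 of the 36 (31.2% of all tested genes) and below them for 6 (30.8%). The remaining 8 overlapped. On deposited TPM these counts were 19 above and 10 below. Over all tested genes the split was 4867 above and 4796 below, and on TPM, over genes averaging 1 TPM or more, 3657 and 6073. Those sets of genes are not the same. The sign of the difference was the same in the untreated and in the doxorubicin pair for 31 of 36 genes (86.1%), and for 72.4% of all tested genes.

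**Figure D2:**
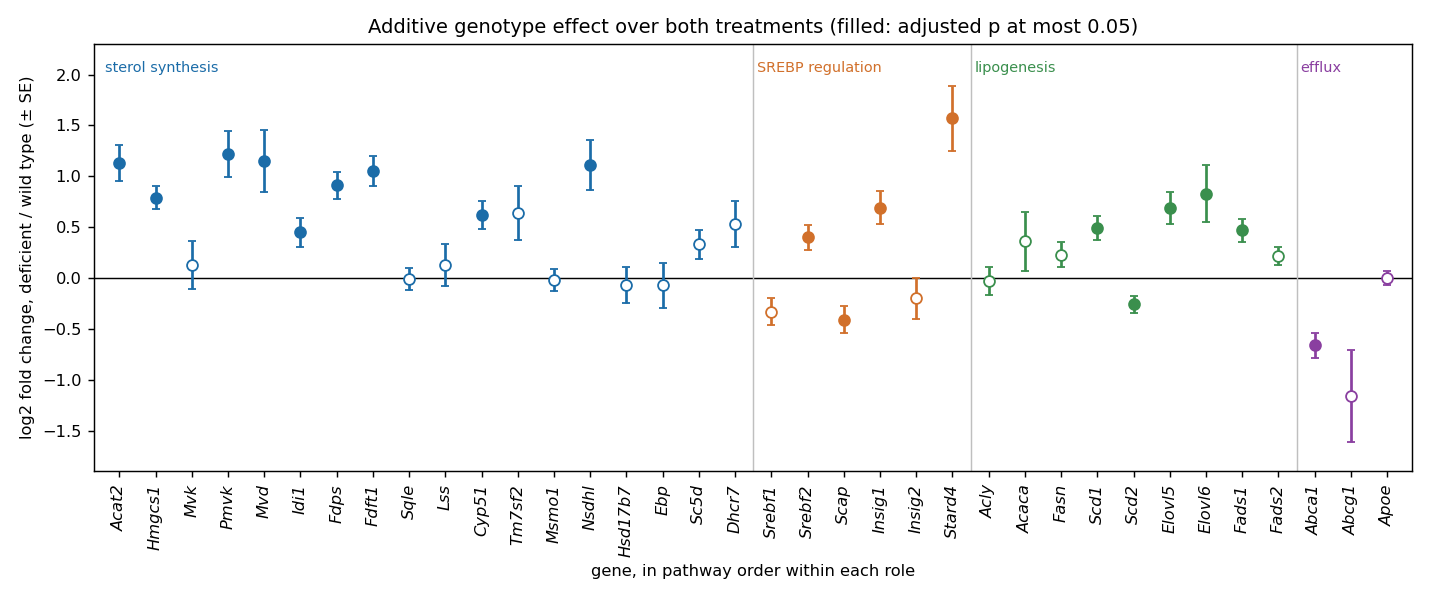
Additive genotype effect of each gene as log2 fold change of deficient over wild type, with bars of ± 1 SE and filled points for an adjusted p of at most 0.05, in pathway order within each role. The enzymes from Acat2 to Fdft1 sit above 0 with Mvk the lowest of them at 0.13, and Abca1 sits at -0.66.

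The 18 sterol synthesis enzymes had a median genotype effect of 0.58 (log2), with 9 called higher and none lower. The path was divided at squalene after the values were seen. Of the 8 enzymes listed up to squalene, 7 were called higher, with a median effect of 0.98. Of the 10 enzymes listed after squalene, 2 were called higher, with a median of 0.23, beside the 12.6% of all tested genes called higher. The difference between these segments was not tested. Summed over the early segment, the TPM came to 482 and 457 TPM in the wild-type libraries and 802 and 746 TPM in the deficient libraries. The late segment summed to 664, 650, 641 and 645 TPM. These sums are on TPM, where the untreated median over all genes was -0.20, against -0.03 on counts. On CPM, both deficient libraries lay above both wild-type ones for 7 of the 8 early and 5 of the 10 late enzymes. Over all tested genes 31.2% did. They lay below for 0 early and 1 late enzyme, against 30.8% of all tested genes.

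Acat2, the cytosolic thiolase that starts the path, had 59.0, 44.9, 107 and 119 CPM. Both deficient values exceeded both wild-type values, by 1.81-fold untreated (95% interval 1.69 to 1.95) and 2.64-fold with doxorubicin (2.45 to 2.84). The additive effect was 1.13 ± 0.173 (log2, SE; edgeR adjusted p = 0.000185). Hmgcs1 makes hydroxymethylglutaryl-CoA and had 274, 212, 424 and 408 CPM. Its additive effect was 0.79 ± 0.115 (edgeR adjusted p = 0.000124), from the lowest value in wild type with doxorubicin to the highest in deficient untreated. The next enzyme measured, mevalonate kinase (Mvk), was the early member without a call, at 31.2, 33.4, 38.3 and 32.4 CPM with overlapping genotypes.

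Pmvk and Mvd encode the following kinase and the decarboxylase that yields isopentenyl diphosphate. Pmvk had 27.0, 36.2, 84.6 and 62.7 CPM, and Mvd had 11.3, 20.1, 38.0 and 29.9 CPM. In both, wild type untreated was the lowest library and deficient untreated the highest. Pmvk was 3.13-fold higher in the untreated deficient library (2.84 to 3.47) and 1.73-fold higher after doxorubicin (1.58 to 1.89). Mvd was 3.36-fold higher untreated (2.89 to 3.93) and 1.49-fold higher after doxorubicin (1.31 to 1.68). The additive effects were 1.22 ± 0.224 for Pmvk (edgeR adjusted p = 0.000923) and 1.15 ± 0.309 for Mvd (adjusted p = 0.013). The Mvd call was lost under 1 of 6 alternatives, at an adjusted p of 0.0507.

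Idi1, the isomerase of isopentenyl diphosphate, showed a smaller difference, with 108, 83.5, 141 and 121 CPM and an effect of 0.45 ± 0.141 (edgeR adjusted p = 0.0291). Its call was lost under 3 of 6 alternatives, where its adjusted p reached 0.101. Fdps, which builds farnesyl diphosphate, had 102, 116, 211 and 198 CPM. Fdft1 (chr14:63145150-63179578), squalene synthase and the first step committed to sterols, had 94.3, 117, 238 and 198 CPM. In both genes each deficient library exceeded each wild-type one. Their effects were 0.91 ± 0.134 (edgeR adjusted p = 0.000127) and 1.05 ± 0.148 (adjusted p = 8.86e-05), and Fdft1 has the smallest adjusted p among the 36 genes. Of 50-base stretches of transcript, 26.5% of Fdft1, 39.1% of Acat2, 26.2% of Fdps and 25.3% of Idi1 also occur in transcripts of other genes, so their counts could be split by the authors' counting. The main partner of Fdft1, Ctsb, went the other way, at 63839, 58526, 36771 and 33932 counts. Acat2 shared 39.1% with Acat3, at 219, 120, 219 and 275 counts, and 11.2% with Tcp1, at 5352, 5859, 4894 and 5720 counts. At least 5% was also shared by Acaca (30.4%), Hmgcs1 (11.6%), Scap (9.96%) and Tm7sf2 (9.87%).

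After squalene, the next 2 enzymes were not called. The oxygenase Sqle, which opens the post-squalene path, had 277, 293, 267 and 300 CPM (effect -0.01 ± 0.112, edgeR adjusted p = 0.957). The cyclase Lss, which forms lanosterol, had 45.0, 37.3, 49.9 and 40.1 CPM. Both overlapped between the genotypes. The demethylase Cyp51 was called higher, with 118, 103, 167 and 171 CPM and an effect of 0.62 ± 0.136 (edgeR adjusted p = 0.00342). Msmo1, the oxidase that acts on the same sterols as Nsdhl, had 321, 290, 313 and 289 CPM and an effect of -0.02. Nsdhl, the X-linked dehydrogenase that removes a carbon with it, had 18.1, 22.6, 45.7 and 42.1 CPM. Nsdhl was 2.52-fold higher untreated (2.22 to 2.86) and 1.86-fold higher after doxorubicin, with an additive effect of 1.11 ± 0.244 (edgeR adjusted p = 0.00348).

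Of the remaining late enzymes, none was called. The sterol reductase Tm7sf2 had 18.1, 22.7, 33.7 and 29.9 CPM, and Dhcr7, the reductase that ends the path, had 25.8, 31.6, 41.0 and 41.6 CPM. Their deficient libraries were above both wild-type libraries, yet the adjusted p was 0.0949 and 0.111 in edgeR's test. Sc5d lay above in the same way at an adjusted p of 0.109. The isomerase Ebp and the reductase Hsd17b7 had effects of -0.07 each on counts. On deposited TPM, Ebp had 42.5, 41.0, 27.4 and 28.7 and Hsd17b7 had 29.5, 37.3, 23.7 and 23.8. On that scale both deficient libraries lay below both wild-type ones for these genes.

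**Figure D3:**
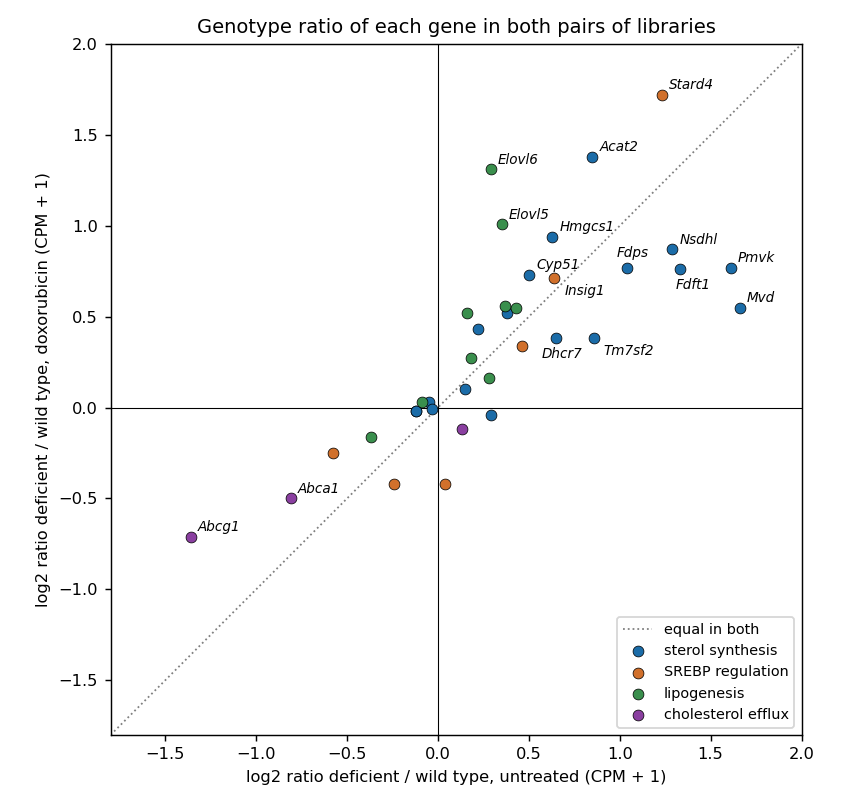
Log2 ratio of deficient over wild type (CPM + 1) for each gene, in the untreated pair on the x axis and in the doxorubicin pair on the y axis, coloured by role, with a dotted line of equality. Mvd (1.66 and 0.55) and Pmvk (1.61 and 0.77) lie below the line, Elovl6 (0.29 and 1.31) and Stard4 (1.23 and 1.72) above it, and Abca1 and Abcg1 fall in the lower left.

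By size alone, 6 genes were at least 2-fold higher in the untreated deficient library (Pmvk, Mvd, Fdps, Fdft1, Nsdhl and Stard4), where 9.79% of all tested genes were. In that pair 1 gene, Abcg1, was at least 2-fold lower, where 10.2% of all tested genes were. With doxorubicin 4 genes were at least 2-fold higher in the deficient library (Acat2, Stard4, Elovl5 and Elovl6; 10.7% of all tested genes) and none was that much lower (9.55%). Over all tested genes the untreated split was 1527 higher and 1588 lower. On deposited TPM, over genes averaging 1 TPM or more, it was 1221 and 2095. Of the 36 genes, 4 were at least 2-fold higher in the untreated pair on TPM (Pmvk, Mvd, Fdft1 and Nsdhl) and 3 in the doxorubicin pair (Acat2, Stard4 and Elovl6). Abcg1 was at least 2-fold lower in both pairs on TPM. In the doxorubicin pair the split over all genes was 1670 higher and 1490 lower on counts, and 1353 and 1795 on TPM. The total of genes on the TPM scale is not given here, so no share is. The median ratio of the 36 genes was 0.29 untreated and 0.38 with doxorubicin, against -0.03 and 0.02 over all tested genes.

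Among the 6 regulatory genes, 3 were called higher (12.6% of all tested genes) and 1 lower (10.6%). Srebf2, whose product mainly drives sterol synthesis, had 167, 168, 231 and 213 CPM and an effect of 0.40 ± 0.121 (edgeR adjusted p = 0.0242). Srebf1, whose product mainly drives fatty acid synthesis and which LXR induces, had 164, 199, 139 and 149 CPM. The deficient libraries of Srebf1 lay below both wild-type ones, but the effect of -0.33 ± 0.129 was not called (edgeR adjusted p = 0.0778). It was called in 2 of 6 alternatives, limma-voom and a minimum mean of 5 CPM, with the adjusted p over all 6 from 0.0424 to 0.146. Scap, the escort of both, was called lower with 200, 172, 134 and 145 CPM (effect -0.41 ± 0.134, edgeR adjusted p = 0.0349). The Srebf2 and Scap calls were lost under 1 and 3 of 6 alternatives, with the highest adjusted p at 0.0558 and 0.0769.

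Insig1, an SREBP target that feeds back on the path, was called higher, at 64.4, 53.9, 101 and 89.1 CPM (effect 0.69 ± 0.161, edgeR adjusted p = 0.00545). Insig2, which is not induced by SREBP in the same way, had 52.3, 59.0, 53.6 and 43.9 CPM, overlapping between genotypes. Stard4 (chr18:33199355-33213862), a small carrier that moves sterol between membranes and is itself sterol-regulated, had the largest effect among the 36 genes, 1.57 ± 0.319 (edgeR adjusted p = 0.00197). Its CPM were 9.49, 9.17, 23.6 and 32.4, from 189, 210, 407 and 641 counts, so both deficient libraries stood at more than 2-fold of both wild-type ones. The ratio was 2.49 untreated (2.09 to 2.98) and 3.53 with doxorubicin (3.02 to 4.15).

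In lipogenesis, 4 of 9 genes were called higher (12.6% of all tested genes) and 1 lower (10.6%), all of them desaturases or elongases. Acly, Acaca and Fasn supply acetyl-CoA, malonyl-CoA and palmitate, and none was called. Fasn had 154, 169, 174 and 204 CPM, with an edgeR adjusted p of 0.218. Scd1, which desaturates stearate, was called higher with 183, 165, 246 and 242 CPM (effect 0.49 ± 0.12, edgeR adjusted p = 0.00707). Its brain paralog Scd2 was called lower with 1598, 1412, 1234 and 1267 CPM (effect -0.26 ± 0.0864, adjusted p = 0.0369). Scd2 lost its call under 2 of 6 alternatives, with the adjusted p up to 0.0859. Per transcript length Scd2 was the more abundant of the pair, with 394 TPM against 52.3 TPM in wild type untreated and 264 against 61.4 TPM in deficient untreated.

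Of the listed lipogenic genes that make polyunsaturated fatty acids, Elovl5 and Fads1 were called higher and Fads2 was not called. The elongase Elovl2, which is outside that list, was called lower (effect -2.74 ± 0.35, edgeR adjusted p = 3.21e-05). The genes of polyunsaturated fatty acid synthesis therefore did not all move in the same direction. Elovl5, an elongase of these fatty acids, had 132, 104, 169 and 210 CPM and an effect of 0.69 ± 0.155 (edgeR adjusted p = 0.0043). Fads1 had 263, 231, 341 and 341 CPM (effect 0.47 ± 0.113, adjusted p = 0.00691). Fads2, the other desaturase of that path, had 806, 918, 981 and 1023 CPM and missed the threshold in edgeR's test (adjusted p = 0.0912). Only limma-voom among the 6 alternatives called it, at an adjusted p of 0.032. Elovl6, which extends palmitate to stearate, had 30.0, 15.8, 36.9 and 40.7 CPM. Wild type with doxorubicin was the low library there, and the effect of 0.83 ± 0.28 was called (edgeR adjusted p = 0.0428) but lost under 3 of 6 alternatives, at up to 0.136. On deposited TPM its values were 17.3, 5.33, 13.6 and 15.1, so the genotypes overlapped and the untreated ratio turned from 1.23 on counts to 0.785.

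Of the efflux genes, 1 of 3 was called, and it was lower, as were 10.6% of all tested genes. Abca1 (chr4:53030787-53159895), which loads cholesterol onto apolipoproteins, had 311, 282, 177 and 200 CPM, so the deficient level was 0.570-fold that of wild type untreated (0.545 to 0.595) and 0.707-fold with doxorubicin (0.679 to 0.736). Its effect was -0.66 ± 0.122 (edgeR adjusted p = 0.00101), and all 6 alternatives called it lower. Abcg1, which exports cholesterol to lipoprotein particles, had 13.2, 11.8, 4.53 and 6.83 CPM from 262, 270, 78 and 135 counts. These ratios were 0.344 untreated (0.264 to 0.445) and 0.579 with doxorubicin (0.467 to 0.714), but the additive effect of -1.16 ± 0.449 was not called (edgeR adjusted p = 0.0768), nor was it in any of the 6 alternatives. On deposited TPM the ratio was 0.246 untreated and 0.302 with doxorubicin, so the doxorubicin pair too was past 2-fold on that scale. Apoe had 8322, 8728, 9098 and 8009 CPM and an effect of 0.00 ± 0.0656.

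The doxorubicin label, which goes with the Xist split, gave no call among the 36 genes. The additive fit of edgeR called 0 higher (0.0192% of all tested genes) and 0 lower (0.141%), with 0 at an unadjusted p of at most 0.05. DESeq2 and limma-voom also called 0, with 0 and 1 at that unadjusted p. Effects ran from -0.39 for Elovl6 to 0.24 for Acly, with the lowest adjusted p at 0.887 (edgeR, Benjamini-Hochberg), for Idi1. Within wild type, none was 2-fold higher (4.08% of all tested genes) or lower (5.45%), and within deficient cultures none was 2-fold higher (1.58%) or lower (1.93%). On the log2 scale the ratio farthest from 0 was that of Elovl6 in wild type, at 0.527-fold (0.461 to 0.601), from 30.0 to 15.8 CPM. On deposited TPM the Elovl6 ratio was 0.309, which is past 2-fold lower. In deficient cultures the Elovl6 ratio was 1.10 (0.993 to 1.23).

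**Figure D4:**
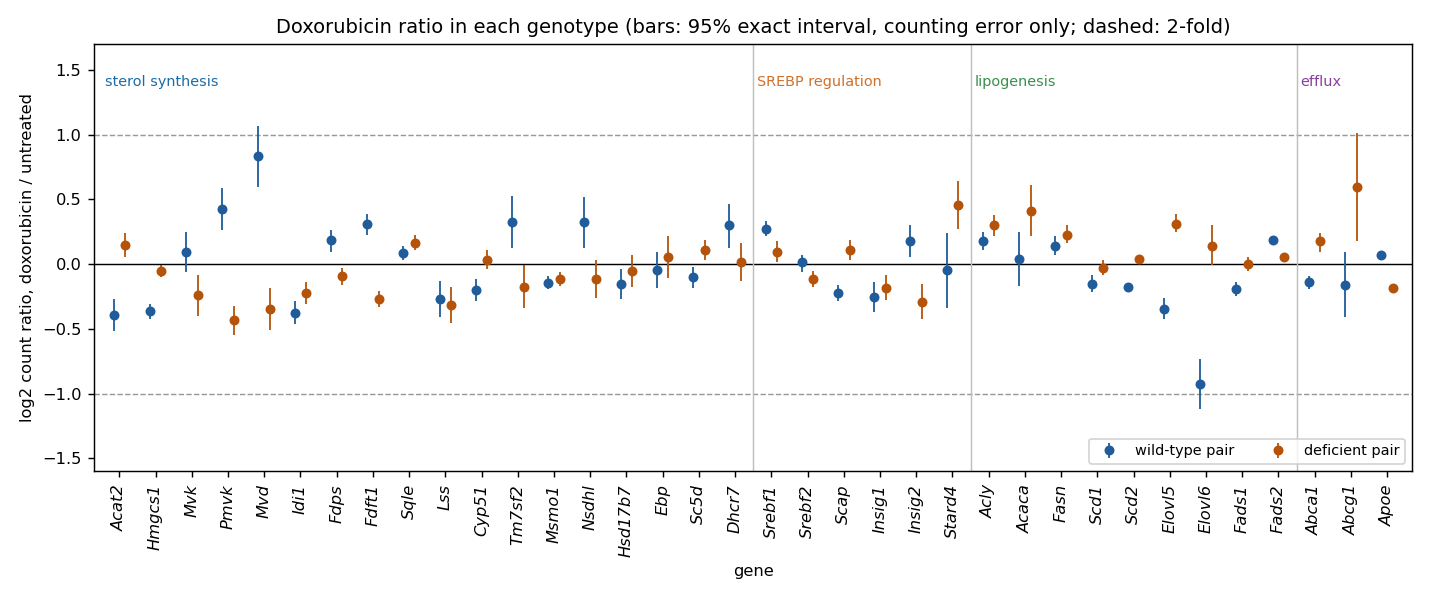
Log2 count ratio of doxorubicin over untreated for each gene, with wild type in blue and deficient in orange, and bars of 95% exact intervals that cover counting error only. Dashed lines mark 2-fold. Mvd stands at 1.78-fold and Elovl6 at 0.527-fold in wild type, Abcg1 stands at 1.51-fold in deficient cultures, and the other points lie nearer to 0.

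The responses of some genes had opposite signs by genotype. Some were early enzymes and others were not, as with Tm7sf2 (1.25-fold in wild type, 0.887-fold in deficient cultures) and Elovl5 (0.788-fold and 1.24-fold). The share of all tested genes with opposite signs was not counted. Mvd was 1.78-fold in wild type (1.51 to 2.10) and 0.786-fold in deficient cultures (0.702 to 0.880). Pmvk was 1.34-fold and 0.741-fold, and Fdft1 1.24-fold and 0.831-fold. Acat2 went the other way, at 0.761-fold in wild type and 1.11-fold in deficient cultures. Deficient minus wild type, the difference of responses was at least 1 in size for 2 of the 36 genes, Elovl6 at 1.02 (7.66% of all tested genes were that much higher) and Mvd at -1.11 (6.05% that much lower). These differences have no test, since each response comes from 1 pair of libraries.

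Other genes of sterol handling were taken as a list of 32. Of these, 2 were called higher and 4 lower, with a median effect of -0.05, where 12.6% of all tested genes were called higher and 10.6% lower. Dhdds, which makes dolichol from the same isoprenoid pool, was higher (1.47 ± 0.243, edgeR adjusted p = 0.000352). The lipoprotein receptor gene Vldlr was lower (-1.06 ± 0.34, adjusted p = 0.0342), as was the transporter Abca7 (-1.54 ± 0.384, adjusted p = 0.00847). Of 29 tested genes of fatty acid synthesis and esterification outside the 36, 9 were called higher and 2 lower, with a median of 0.09. The elongase Elovl2 was lower, with 546, 1164, 110 and 96 counts (-2.74 ± 0.35, adjusted p = 3.21e-05), as was the phosphatidate phosphatase Lpin1 (-1.62 ± 0.178, adjusted p = 6.85e-06). Thrsp, a lipogenic regulator, was higher (2.28 ± 0.456, adjusted p = 0.00173). Of 16 fatty acid oxidation genes 3 were called higher and 2 lower, near the shares over all tested genes.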

How the data were processed

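The 36 genes and the other lists were chosen with earlier results of these data known. The authors deposited, for each library, estimated counts and TPM values per gene, per the file headers. Per the submitters' processing notes, the tool is DRAGEN and the build GRCm38. The version and the annotation release are not given in the sources used. Libraries were made with SMART-Seq v4 from total RNA, per the labels' protocols. This kit does not mark strand, so reads of overlapping genes cannot be told apart.

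Counts were rounded to whole numbers and scaled with TMM factors (edgeR 4.0.16, R 4.3.3). Of 55487 identifiers 55227 matched a GENCODE symbol. A minimum mean of 1 CPM left 15596 genes. Log2 ratios of single libraries used CPM + 1, which understates changes of low genes, and a gene counted as higher or lower at 2-fold. Intervals are exact conditional binomial 95% intervals of the counts, and they cover counting error only. The floor of 3 counts was used only for the CPM that an observed 0 could hide. The additive model (genotype and treatment) used edgeR's quasi-likelihood test on all genes with Benjamini-Hochberg adjustment, and was tested on simulated data. Its common dispersion was 0.0863 with 14.3 prior degrees of freedom. Genes given library by library were those called, those at 2-fold in any pair, the 2 largest effects per role, the SREBP and INSIG genes and the efflux genes, and up to 4 genes per other list with the largest effect. Alternatives were DESeq2 1.42.0, limma-voom (limma 3.58.1), scaling by DESeq2 size factors or by total counts, a pseudocount of 0.5 or 5 CPM, minimum means of 5 CPM or none, deposited TPM and a model without the other factor. Shared sequence was counted as 50-base stretches of GENCODE transcripts.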

Additional observations from a re-analysis of the deposited data

Results flagged for a closer look

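The doxorubicin response of Mvd, the decarboxylase of the mevalonate path, went in opposite directions in the genotypes. The count ratio was 1.78 in wild type and 0.786 in deficient cultures, and the difference of responses on the log2 scale of CPM + 1, deficient minus wild type, was -1.11. With 1 pair of libraries per genotype the difference was not tested.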

How the results depend on the processing

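No paired analysis was possible because each group holds 1 library, and for the same reason no replicate could be left out. In the untreated genotype pair the median over all tested genes was -0.03, with 1527 higher and 1588 lower at 2-fold. On deposited TPM, over genes averaging 1 TPM or more, the median was -0.20, with 1221 higher and 2095 lower. The sets of genes differ between these scales. The median of the 36 genes moved from 0.29 to 0.16 on TPM. In the doxorubicin pair the median of the 36 genes moved from 0.38 to 0.26 on TPM, and 1 gene, Abcg1, became 2-fold lower. Over all genes that median moved from 0.02 to -0.09, with 1490 genes 2-fold lower on counts and 1795 on TPM. On TPM 10 genes in place of 6 had both deficient libraries below, 1 gene, Elovl6, was 2-fold lower with doxorubicin in wild type, and the difference of responses was at least 1 upward in 2 genes and downward in 0. Over all genes these counts on TPM were 6073, 910, 1338 and 1003. On counts they were 4796, 850, 1194 and 943. With DESeq2 size factors 0 genes had a difference of responses at least 1 upward. A pseudocount of 5 CPM left 0 in either direction there, and 0 genes 2-fold lower in the untreated genotype pair. Over all genes, DESeq2 size factors gave 1120 such upward differences, against 1194 in the main setting. The pseudocount of 5 CPM gave 306 upward and 174 downward, and 643 genes lower in that pair. The additive genotype fit called 3 of the 36 genes lower, but 1 with no minimum and 1 without treatment in the model, and 16 higher against 13 under either. Calls over all genes fell too. Of 15596 genes 1648 were called lower, against 1208 of 28077 with no minimum and 1299 of 15596 without treatment. The genes called higher were 1972, against 1506 and 1513. The 19 genes called kept their direction on TPM averaged over both pairs, though Elovl6 turned in the untreated pair. For doxorubicin, 0 of the 36 genes were called with edgeR, DESeq2 or limma-voom.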

Other observations

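The deposited TPM and the counts did not move together for some genes. After centring, the TPM per CPM of Abcg1 spanned 1.75-fold over the libraries and that of Elovl6 1.65-fold. Acaca, Fasn, Hsd17b7, Insig2 and Ebp followed at 1.56, 1.53, 1.46, 1.33 and 1.28-fold. The median range over the 36 genes was 0.10 on the log2 scale. It was 0.12 over 11914 genes with at least 50 counts in each library. The other fatty acid binding protein gene of the list, Fabp7, was higher in the deficient libraries, with 10281, 11628, 23079 and 26406 counts (edgeR additive effect 1.39 ± 0.0899, adjusted p = 2.03e-08). Cyp27a1, which turns cholesterol into an oxysterol, had 91, 94, 29 and 3 counts and was not called (adjusted p = 0.0714).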
